A study of Mus musculus with 4 samples.

Results

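The 9 genes Wnt2b, Wnt3, Wnt3a, Wnt5a, Wnt6, Wnt7a, Wnt7b, Wnt8b and Wnt9a, which encode secreted Wnt ligands, were chosen by name from the 21937 features counted in the dorsal midline of the embryonic mouse telencephalon, and all 9 were found. Single cells were taken from tissue dissected around the cortical hem of both hemispheres of male embryos, and 4 libraries were made, 1 for each combination of age and genotype. The gof libraries came from Lmx1aCre::Ai9::b-cat gof embryos and the control libraries from Lmx1aCre::Ai9 embryos, each from a pool of 5 (E11.5) or 3 (E14.5) embryos. All 4 groups thus carried the Cre, which recombines in cells that have expressed Lmx1a, and the Ai9 reporter, which makes tdTomato after recombination; no group without Cre was analysed here. The series asks what constant canonical Wnt signalling in progenitors of the hem does to the Cajal-Retzius cells that arise from them. The b-cat gof allele is not read by counts from the 3′ ends of transcripts, so those counts do not check the genotype labels. In tdTomato-positive cells, 5 of 5 listed targets of canonical signalling (Axin2, Lef1, Sp5, Nkd1 and Notum) were called higher in gof than in control at each age by the rule given below, where 5.15% of 10581 genes at E11.5 and 7.41% of 11658 genes at E14.5 were, Axin2 for instance with 260 CPM in gof and 148 CPM in control at E14.5.

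Wnt ligands are lipid-modified proteins that act on neighbouring cells. In the canonical branch they bind Frizzled and Lrp receptors and protect β-catenin from destruction, so that it can act with Tcf and Lef factors on target genes. The cortical hem is a strip of neuroepithelium at the edge of the medial pallium, next to the choroid plexus; it makes several Wnt and Bmp ligands, instructs the hippocampus beside it and gives rise to many Cajal-Retzius cells.

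The deposited matrices held 6263 to 8677 cell barcodes and 59594082 to 113821989 unique molecular identifiers (UMIs, each counting 1 captured transcript) per library, and 5258 to 6991 cells per library were kept, with a median of 5643 (E11.5 gof) to 14013 (E14.5 gof) UMIs per cell. Any pair of libraries shared 12 to 18 barcodes. A cell with 2 or more tdTomato UMIs was called tdTomato-positive and a cell with 0 tdTomato-negative: 293 and 6035 cells in E11.5 gof, 554 and 5246 in E11.5 control, 1027 and 3492 in E14.5 gof, and 1104 and 4557 in E14.5 control. Levels are UMIs summed over a set of cells and scaled to that set's total (CPM, the usual counts-per-million scale), with exact 95% Poisson intervals in square brackets, and shares of cells have exact 95% Clopper-Pearson intervals. Both cover counting error only. With 1 library per group there was no replicate and no test, and every difference below is between libraries. A gene was called higher or lower where the levels differed at least 1.5-fold after adding 1 CPM to each and the intervals did not overlap. Genes below 5 CPM in both sets were not considered. Log2 ratios are of CPM + 1, which understates the change of low genes.

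The 9 genes lie on 7 chromosomes (GRCm38 coordinates, counted from 1, all annotated as protein-coding). Wnt6, a ligand known from surface ectoderm and other epithelia, is at chr1:74771892-74785322 on the plus strand, and Wnt10a follows it on the same strand after 6193 bases. Wnt3a, a canonical ligand that the hippocampus needs in order to form, is at chr11:59248033-59290752 on the minus strand. Wnt9a, known for its part in joint formation, is at chr11:59306928-59333552 on the plus strand, 16175 bases from Wnt3a and transcribed away from it. Wnt8b, a ligand of the dorsomedial forebrain, is at chr19:44493472-44514273 on the plus strand. Wnt2b, also a roof-plate and hem ligand, is at chr3:104945272-104961921 (minus), Wnt3, which early gastrulation needs, at chr11:103774150-103817957 (plus), and Wnt5a, best known for signalling without β-catenin, at chr14:28504750-28527448 (plus). Wnt7a at chr6:91363981-91411363 (minus) and Wnt7b at chr15:85535437-85582473 (minus) encode the ligands that neural cells send to brain endothelium.

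The 250 bases before the annotated start are shown for the gene that was higher in gof (Wnt6), for the neighbouring pair that was lower in E14.5 gof (Wnt3a and Wnt9a) and for the hem ligand that was not called lower in the tdTomato-positive and hem-gated cells there (Wnt8b), from RefSeq on GRCm38.p6, read 5′ to 3′ on the gene's strand. Of the 9 genes, 7 were matched in that table; Wnt5a and Wnt7b are named only. The windows are chr1:74771642-74771891 for Wnt6, chr11:59290752-59291001 for Wnt3a, chr11:59306680-59306929 for Wnt9a and chr19:44493222-44493471 for Wnt8b. Capitals mark CTTTG, the core of the motif that Tcf and Lef factors bind, searched on both strands (CTTTG and CAAAG).
Wnt6: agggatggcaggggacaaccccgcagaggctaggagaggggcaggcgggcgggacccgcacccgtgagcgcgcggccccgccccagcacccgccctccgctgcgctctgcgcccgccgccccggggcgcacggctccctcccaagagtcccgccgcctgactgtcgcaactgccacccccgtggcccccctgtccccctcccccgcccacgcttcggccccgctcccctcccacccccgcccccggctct
Wnt3a: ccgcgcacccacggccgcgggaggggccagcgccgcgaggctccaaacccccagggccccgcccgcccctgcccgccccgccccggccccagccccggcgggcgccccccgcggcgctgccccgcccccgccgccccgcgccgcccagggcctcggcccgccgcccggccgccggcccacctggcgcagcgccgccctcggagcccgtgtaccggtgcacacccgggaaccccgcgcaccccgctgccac
Wnt9a: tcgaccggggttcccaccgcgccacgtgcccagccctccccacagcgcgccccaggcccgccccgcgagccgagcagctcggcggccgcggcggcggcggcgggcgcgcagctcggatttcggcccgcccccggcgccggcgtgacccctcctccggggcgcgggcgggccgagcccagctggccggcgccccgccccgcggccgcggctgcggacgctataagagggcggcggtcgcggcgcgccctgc
Wnt8b: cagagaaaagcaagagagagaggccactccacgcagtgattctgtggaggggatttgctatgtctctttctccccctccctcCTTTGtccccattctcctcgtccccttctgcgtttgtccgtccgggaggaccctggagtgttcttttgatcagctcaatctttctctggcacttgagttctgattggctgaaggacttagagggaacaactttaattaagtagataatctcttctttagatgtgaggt
The core was found once in the Wnt8b window, 168 bases upstream of the start, and once in the Wnt3 window, which is not printed, 222 bases upstream. It was in 48.6% of 32851 windows of this length, and the longer form CTTTGA (or TCAAAG), which contains the core, was in 13.8% of all windows and in none of the 7. G and C made up 79.6% of the Wnt6 window, 87.6% of the Wnt3a window, 84.4% of the Wnt9a window and 48.4% of the Wnt8b window.

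In the control libraries, 4 of the ligands were called higher in tdTomato-positive than in tdTomato-negative cells at both ages. Wnt3a had 50.04 CPM in tdTomato-positive and 7.06 CPM in tdTomato-negative cells of the E11.5 control, and 40.5 and 0.999 CPM in those of the E14.5 control. Wnt9a had 87.3 CPM in tdTomato-positive and 15.8 CPM in tdTomato-negative cells at E11.5, and 65.1 and 1.81 CPM at E14.5. Wnt8b had 240 CPM in tdTomato-positive and 95.8 CPM in tdTomato-negative cells at E11.5, and 136 and 19.8 CPM at E14.5. These ligands were thus read in both classes at E11.5. At E14.5 Wnt3a and Wnt9a were read mostly in tdTomato-positive cells. Those cells, 16.8% of the E14.5 control, held 85.1% of its Wnt3a UMIs and 83.3% of its Wnt9a UMIs, but 60.6% of its Wnt8b UMIs. A count of 0 tdTomato UMIs does not place a cell outside the lineage. Of hem-gated control cells, 775 of 1395 at E11.5 and 84 of 361 at E14.5 had 0. The control libraries had medians of 8172 (E11.5) and 12850 (E14.5) UMIs per cell. Whether the reporter was missed more often at E11.5 was not tested. Wnt5a was called at both ages too, with 33.6 and 17.4 CPM at E11.5 and 159 and 42.7 CPM at E14.5. In the E11.5 control, tdTomato-positive cells were 8.52% of cells. They held 44.5% of the Wnt3a, 39.7% of the Wnt9a, 26.1% of the Wnt8b and 22.2% of the Wnt5a UMIs. The tdTomato-negative cells held 56.4% of the Wnt8b and 62.0% of the Wnt5a UMIs. Wnt2b (16.4 and 1.75 CPM) and Wnt7b (70.3 and 28.6 CPM) were called higher in tdTomato-positive cells of the E14.5 control. Wnt7a was the 1 ligand called lower there, at 1.87 CPM in tdTomato-positive and 8.42 CPM in tdTomato-negative cells.

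Of the 6 ligands that reached 5 CPM in either class of the E11.5 control, 4 were called higher in tdTomato-positive cells and 0 lower, where 10.2% of 10304 genes were called, 7.09% higher and 3.08% lower. In the E14.5 control 6 of 7 were called higher and 1 lower, where 21.0% of 11487 genes were called, 15.6% higher and 5.37% lower. The gof libraries differed from this in 4 ligands. Wnt6 was called higher at both ages, with 24.9 CPM in tdTomato-positive and 3.44 CPM in tdTomato-negative cells of the E11.5 gof library and 101 and 2.50 CPM in those of the E14.5 gof library. Wnt5a had 20.4 and 20.7 CPM in the E11.5 gof classes, and Wnt7b 28.2 and 34.0 CPM in the E14.5 gof classes, neither called. Wnt2b, at 3.61 and 1.51 CPM in the E14.5 gof classes, was under the 5 CPM minimum. Counts were 4 of 6 higher at E11.5 gof (14.7% of 10665 genes called, 9.69% higher and 4.99% lower) and 5 of 7 higher with 1 lower, Wnt7a, at E14.5 gof (19.6% of 11230 genes called, 13.5% higher and 6.11% lower). At E11.5 the median gene was itself higher in tdTomato-positive cells, by a log2 ratio of 0.15 in gof and 0.14 in control; relative to it, the calls of the ligands were as many. The call of Wnt3a in the E11.5 gof library (log2 ratio 1.73) was lost when each cell was thinned to 3000 UMIs (0.83).

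**Figure D1:**
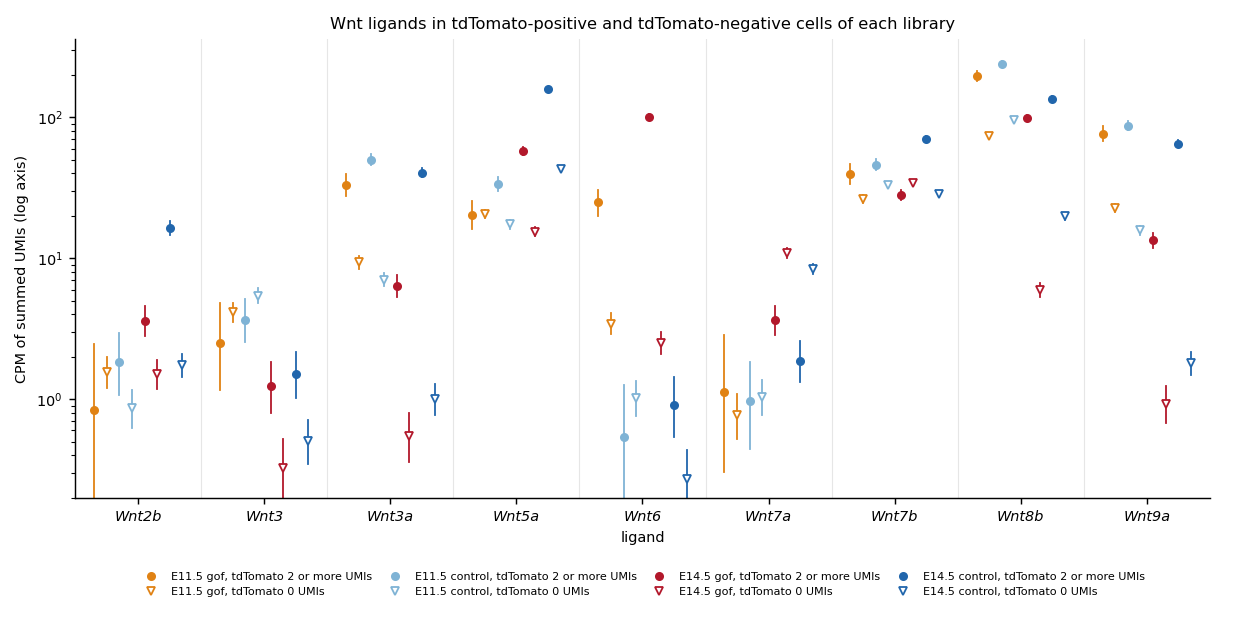
Level of each ligand (CPM of summed UMIs, log axis) in tdTomato-positive cells (filled circles) and tdTomato-negative cells (open triangles) of the 4 libraries; vertical lines are exact 95% Poisson intervals and are drawn down to the bottom of the axis where they reach below it. Wnt6 in E14.5 gof stands at 101 CPM in tdTomato-positive cells, against 0.912 CPM in those of the E14.5 control, while Wnt3a and Wnt9a are lower in gof.

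Cells were also sorted into classes by 15 marker gates that use no Wnt gene, each needing UMIs of at least 3 listed markers, and classes of at least 50 cells in a library are described. The hem-gated cells numbered 1185 in E11.5 gof, 1395 in E11.5 control, 190 in E14.5 gof and 361 in E14.5 control. Of the 7 hem markers, Lmx1a, Rspo1, Rspo2, Rspo3, Bmp6 and Msx1 were read in all 4, whereas Gdf7 was hardly read. It was at 0 CPM in the hem-gated cells of E11.5 gof and of both E14.5 libraries. In those of the E11.5 control it was at 0.211 CPM, which is 3 UMIs. The hem markers differed between genotypes (at E14.5 Rspo2 had 395 CPM in gof and 1493 CPM in control), so the sizes of the class are not compared.

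Wnt8b, Wnt3a and Wnt9a were highest in the hem-gated class, apart from ties with the choroid plexus. Wnt8b had 236 CPM in the hem-gated cells of E11.5 gof, 256 in E11.5 control, 251 in E14.5 gof and 304 in E14.5 control. In the E11.5 control the choroid plexus cells, at 249 CPM, could not be separated from the hem. The class gated as pallial neurons came next in both E11.5 libraries, with 147 CPM in gof and 161 CPM in control. Its name is uncertain at E11.5: the 6 markers of that gate summed to 382 CPM in gof and 356 CPM in control. Macrophages had 724 and 587 CPM of the same markers. The class was also deep, with a median of 10408.5 UMIs in gof and 16434 in control. At E14.5 the choroid plexus was second, with 154 CPM in gof and 85.4 CPM in control, 2 values whose intervals do not overlap. The 7 choroid plexus markers summed to 1293 CPM in the gof class and 5060 CPM in the control class. Whether the 2 classes hold like cells was not tested. Pallial progenitors had 12.6 CPM of Wnt8b in gof and 25.7 CPM in control at E14.5. At E11.5 they had 86.8 CPM in gof and 99.5 CPM in control, so that in both genotypes the level of this class was lower at E14.5. The endothelial and macrophage cells given below also read lower at E14.5 in control, but not in gof. Wnt3a had 98.6 CPM in the hem-gated cells of the E14.5 control, separate from the choroid plexus at 19.1 CPM, and the Cajal-Retzius cells had 14.2 CPM. Wnt9a had 165 CPM in the hem, 73.9 CPM in mesenchyme and 41.0 CPM in the choroid plexus of that library, each separate from the next. In the E14.5 gof library the top 2 classes for Wnt9a, hem at 40.8 CPM and choroid plexus at 25.2 CPM, were not separate.

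Wnt2b had too few UMIs at E11.5 to order its classes, whose intervals overlapped throughout the top of the order. In the E14.5 control it stood at 39.6 CPM in the hem, apart from mesenchyme at 10.8 CPM. In the E14.5 gof library the hem level of 7.30 CPM did not separate from mesenchyme at 5.61 CPM.

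Wnt5a and Wnt7b were spread over more classes. Wnt5a had 49.9 CPM in gof and 39.2 CPM in control in the mesenchyme of E11.5, the first of the classes in both libraries, but in control its interval overlapped that of Cajal-Retzius cells. At E14.5 it had 90.3 CPM in gof and 208 CPM in control in the hem, 45.0 CPM in gof and 176 CPM in control in Cajal-Retzius cells, and 104 CPM in gof and 169 CPM in control in mesenchyme. Hem, Cajal-Retzius and mesenchymal cells thus all read lower in gof, with separate intervals in each. Wnt7b had 71.8 CPM in gof and 80.4 CPM in control in the Cajal-Retzius cells of E11.5, separate from the hem in control but not in gof. At E14.5 these cells had 31.5 CPM in gof and 87.0 CPM in control, while pallial neurons had 42.3 CPM in gof and 36.6 CPM in control. The lower Wnt7b of gof at E14.5 was therefore not shared by the pallial neurons, whose intervals were also separate, in the other direction.

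Wnt7a and Wnt3 were read mainly outside the hem. Wnt7a had 17.7 CPM in gof and 12.5 CPM in control in pallial progenitors at E14.5, against 1.89 CPM in gof and 1.52 CPM in control at E11.5. In the hem at E14.5 it had 4.98 CPM in gof and 4.58 CPM in control. Wnt3 was highest in diencephalic cells at E11.5, at 52.0 CPM in 121 gof cells and 49.8 CPM in 174 control cells, and next in ungated cells, with 13.3 CPM in gof and 21.1 CPM in control. Its hem level was 0.987 CPM in gof and 1.33 CPM in control at E11.5, which is 9 and 19 UMIs. At E14.5, where the diencephalic class held 6 gof cells and 0 control cells, no class exceeded 3.72 CPM of Wnt3, the level of Cajal-Retzius cells in gof. Wnt3 at E11.5 was thus read in diencephalic and ungated cells and hardly in the hem.

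Free RNA can add to such levels, and the classes of a library differ in how low they read. Diencephalic cells of the E11.5 control, for instance, had 3.63 CPM of Wnt8b [1.46 to 7.48], below the cells described next. Endothelial and macrophage cells, which should lack the hem ligands, gave 8.50 CPM of Wnt8b [4.95 to 13.6] in E11.5 gof, 49.8 CPM [38.6 to 63.2] in E11.5 control, 15.9 CPM [9.98 to 24.1] in E14.5 gof and 11.7 CPM [5.36 to 22.2] in E14.5 control. After thinning to 3000 UMIs per cell, 1.17% of them in gof and 7.06% in control had a Wnt8b UMI at E11.5, against 48.5% and 51.1% of hem-gated cells; before thinning their median depths were 8612.5 UMIs in gof and 11787 in control, against 6273 and 8702 in the hem. Wnt3a in these cells gave 1 UMI in E11.5 gof, 5 in E11.5 control, 0 in E14.5 gof (3 UMIs would be 2.17 CPM) and 8 in the 46 such cells of E14.5 control. Those 8 UMIs, all in macrophages, are 10.41 CPM [4.49 to 20.5] over the 46 cells. Over the 32 macrophages alone, where 3 UMIs would be 7.16 CPM, the level is higher. The interval over the 46 cells overlaps those of Wnt3a in the choroid plexus and the Cajal-Retzius cells of that library. The pallial progenitors there had 0.463 CPM [0.247 to 0.792], so the level of the endothelial and macrophage cells is not a floor for every class. Whether the choroid plexus and Cajal-Retzius levels are expression was not tested. Erythroid cells, also non-neural, had 10.6 CPM of Wnt8b [7.34 to 14.8] in E11.5 gof and 70.5 CPM [62.7 to 79.0] in E11.5 control. Their Wnt7b was 3.43 CPM in gof and 19.1 CPM in control. How much free RNA adds to differences between the E11.5 genotypes was not tested. The Wnt8b level of mesenchyme at E11.5 was 18.8 CPM [15.9 to 22.0] in gof, above the endothelial and macrophage cells and the erythroid cells of its library. In control it was 66.8 CPM [61.1 to 72.9], which overlaps both. Wnt8b in the E14.5 pallial progenitors of gof, at 12.6 CPM, was within the interval of the endothelial and macrophage cells of that library. At 25.7 CPM in control it was above the interval of such cells there. Wnt6 had 11 UMIs in the 22 endothelial cells and 5 UMIs in the 33 macrophages of E14.5 gof, where 3 UMIs over both would be 2.17 CPM. After thinning, 1.92% of these cells had a Wnt6 UMI, and their median depth before thinning was 17693 UMIs. How much of the Wnt6 level of other classes is free RNA was not tested.

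**Figure D2:**
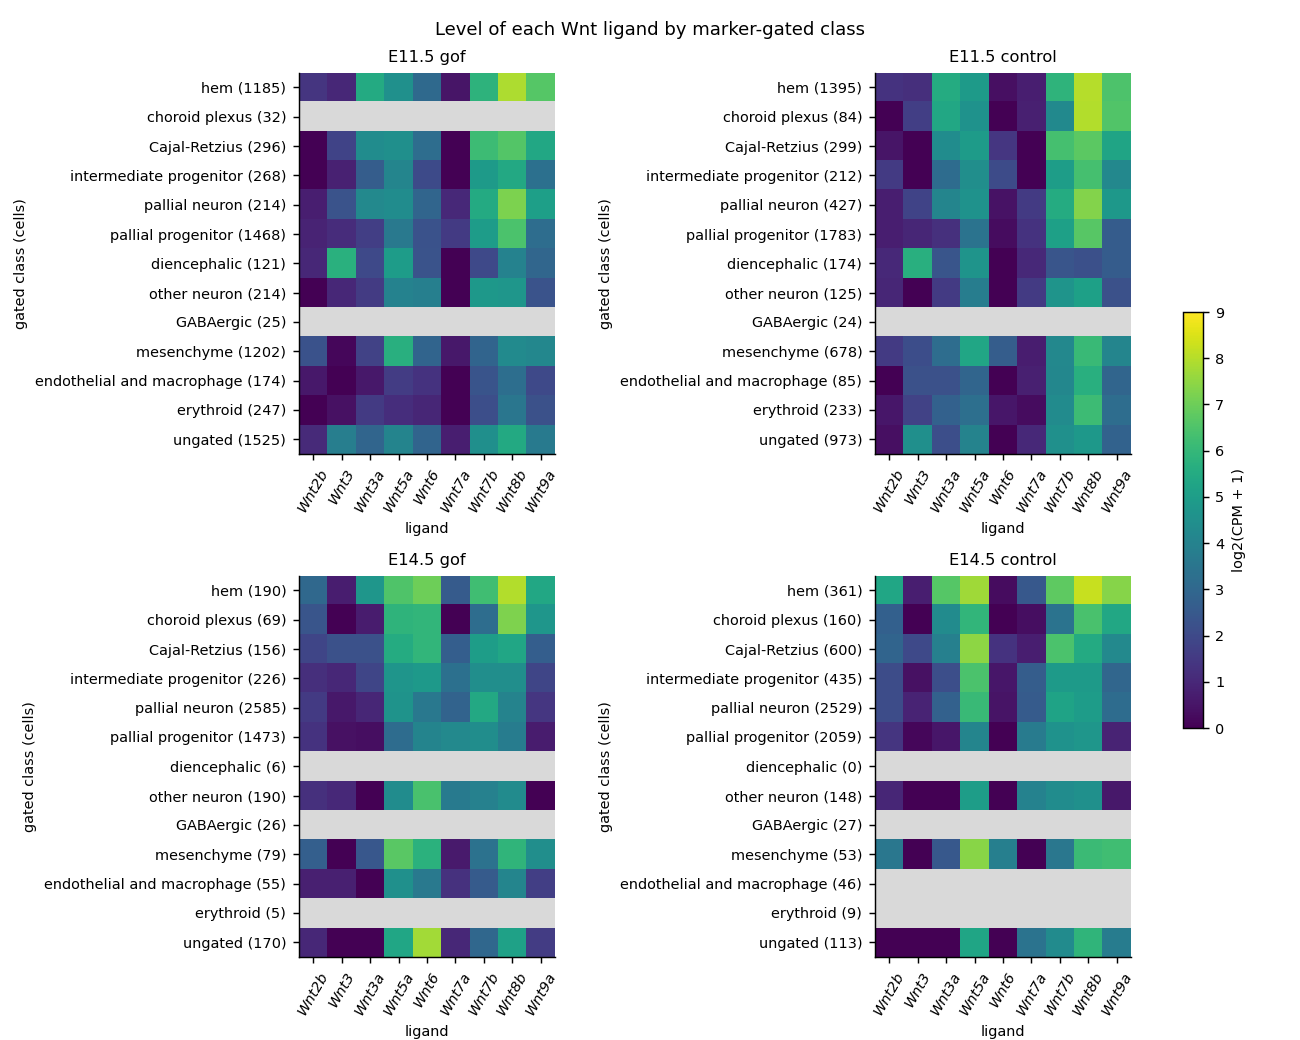
Level of each ligand, as log2(CPM + 1), by marker-gated class in the 4 libraries, with the number of cells in brackets and classes of fewer than 50 cells in grey. Wnt8b fills the hem row of every library and reaches 154 CPM in the choroid plexus of E14.5 gof, Wnt3 marks the diencephalic row at E11.5, and Wnt6 fills most rows of E14.5 gof.

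Ligand levels differed between the libraries of the 2 ages. In the control, E14.5 against E11.5, Wnt5a had 69.1 and 20.7 CPM and Wnt7a 6.82 and 1.04 CPM, and both were called higher. Wnt3a with 9.55 and 15.3 CPM, Wnt8b with 44.9 and 125 CPM and Wnt9a with 15.7 and 30.01 CPM were called lower at E14.5. These calls, 2 of 6 higher and 3 lower, stood among 59.3% of 11213 genes called, 51.2% higher and 8.16% lower, and the median gene had a log2 ratio of 0.61 in control and 0.56 in gof. Relative to that median the control log2 ratios were 1.09 for Wnt5a, 1.33 for Wnt7a, -1.24 for Wnt3a, -2.07 for Wnt8b and -1.50 for Wnt9a. The call of Wnt3a, -0.63 before centring, was lost on thinning (-0.42). In gof, 2 of 7 ligands were called higher, Wnt6 (26.4 CPM at E14.5 and 5.88 CPM at E11.5) and Wnt7a (9.22 and 0.736 CPM), and Wnt3a, Wnt8b and Wnt9a were called lower, with 58.3% of 11215 genes called, 48.5% higher and 9.83% lower. Wnt3 stayed below the 5 CPM minimum at both ages, at 0.722 and 4.90 CPM in control and 0.574 and 3.90 CPM in gof. Fewer cells of a class and less RNA per cell cannot be told apart in these whole-library sums, and the mesenchyme-gated cells, for instance, numbered 79 in gof and 53 in control at E14.5 but 1202 in gof and 678 in control at E11.5.

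In gof against control, Wnt6 was called higher at both ages in all kept cells, in tdTomato-positive cells and in hem-gated cells, and Wnt2b, Wnt3a, Wnt5a and Wnt9a were called lower in the reporter lineage and the hem of the E14.5 gof library. Wnt5a and Wnt8b also read lower in the tdTomato-negative cells of that library, as given below. Over all kept cells at E11.5, Wnt6 had 5.88 CPM [5.22 to 6.61] in gof and 0.912 CPM [0.699 to 1.17] in control, 288 and 62 UMIs. It was the 1 call among 6 ligands, where 9.23% of 10361 genes were called, 5.48% higher and 3.74% lower; Wnt8b (90.0 CPM in gof and 125 CPM in control), Wnt7b (28.1 and 36.1 CPM) and Wnt3a (12.6 and 15.3 CPM) were below the 1.5-fold limit. The Wnt6 call needed the 5 CPM minimum and the barcode filter used: no ligand was called with a minimum of 10 CPM, or with a stricter barcode filter (2000 genes or more, no more than 5% mitochondrial UMIs), under which the log2 ratio of 1.85 for Wnt6 was 1.70.

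At E14.5 the whole-library sums of 5 of 7 ligands were called, 1 higher and 4 lower, where 12.8% of 11199 genes were called, 3.89% higher and 8.91% lower. Wnt6 had 26.4 CPM in gof and 0.427 CPM in control, 2161 and 42 UMIs. Wnt3a had 2.01 CPM in gof and 9.55 CPM in control, Wnt9a 4.13 and 15.7 CPM, Wnt5a 25.6 and 69.1 CPM and Wnt8b 29.1 and 44.9 CPM. The median log2 ratio of the 7 ligands was -0.61 and that of all genes tested -0.09. Wnt8b lay closest to the limit, with a log2 ratio of -0.61, and its call was lost when ratios were centred on the median gene (-0.52) or when haemoglobin, mitochondrial and ribosomal protein genes were left out of the totals (-0.57). Wnt2b had 2.10 CPM in gof and 4.89 CPM in control and fell under the minimum. Wnt7a (9.22 and 6.82 CPM) and Wnt7b (32.7 and 37.9 CPM) were not called.

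Within the tdTomato-positive cells of E11.5, Wnt6 had 24.9 CPM [20.0 to 30.6] in gof and 0.539 CPM in control, 89 and 5 UMIs, a ratio of 46.2 with a counting interval of 19.1 to 146. Wnt5a was called lower, with 20.4 CPM in gof and 33.6 CPM in control (log2 ratio -0.69). That call was lost under the stricter barcode filter (-0.48), on thinning (-0.65) and with tdTomato-positive cells taken from 1 UMI (-0.46). Wnt3a had 33.3 CPM [27.6 to 39.8] in gof and 50.04 CPM [45.6 to 54.8] in control, separate but just under 1.5-fold after adding 1 CPM; after thinning 5.11% of gof and 16.5% of control cells had a Wnt3a UMI, and the log2 ratio was then -1.72 and called. Wnt8b (197 and 240 CPM), Wnt9a (76.7 and 87.3 CPM) and Wnt7b (39.7 and 46.3 CPM) were not called. Of the 6 ligands, 1 was thus called higher and 1 lower, where 10.2% of 10581 genes were called, 5.15% higher and 5.03% lower.

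Within the tdTomato-positive cells of E14.5, 6 of 7 ligands were called, 1 higher and 5 lower, where 25.1% of 11658 genes were called, 7.41% higher and 17.7% lower. Wnt6 had 101 CPM [96.4 to 105] in gof and 0.912 CPM [0.540 to 1.44] in control, 1955 and 18 UMIs, a ratio of 111 with a counting interval of 69.8 to 187. Wnt3a had 6.34 CPM [5.27 to 7.56] in gof and 40.5 CPM [37.7 to 43.4] in control, so that control exceeded gof 6.38-fold [5.27 to 7.78]. Wnt9a had 13.4 CPM [11.8 to 15.1] in gof and 65.1 CPM [61.6 to 68.8] in control, 4.86-fold more in control. The remaining ligands called lower differed less from control. Wnt2b had 3.61 CPM in gof and 16.4 CPM in control, Wnt5a 57.7 and 159 CPM and Wnt7b 28.2 and 70.3 CPM, which is 4.53-fold, 2.75-fold and 2.49-fold more in control. Wnt8b, with 99.4 CPM in gof and 136 CPM in control (log2 ratio -0.44), was not called. Relative to the median gene, whose log2 ratio was -0.13, the ratios were 5.86 for Wnt6, -2.37 for Wnt3a, -2.07 for Wnt9a, -1.78 for Wnt2b, -1.31 for Wnt5a, -1.16 for Wnt7b and -0.31 for Wnt8b.

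Shares of cells went the same way for each ligand given here. After thinning, 22.8% of gof and 0.545% of control tdTomato-positive cells had a Wnt6 UMI at E14.5, 1.47% and 10.4% a Wnt3a UMI, and 3.14% and 14.3% a Wnt9a UMI. Wnt2b was read in 1.27% of gof and 5.63% of control cells, Wnt5a in 14.4% and 34.7%, Wnt7b in 6.67% and 20.5%, and Wnt8b in 19.7% and 25.4%. Without thinning, at median depths of 15805 UMIs in gof and 13554.5 in control, 44.0% and 1.36% had a Wnt6 UMI. Marker genes moved with these ligands: in the same cells the 7 hem markers summed to 1145 CPM in gof and 2824 CPM in control, the 7 choroid plexus markers to 244 and 926 CPM and the 7 Cajal-Retzius markers to 259 and 1449 CPM. The part of this change of cell types in the ligand levels was not tested over the reporter lineage as a whole, and the hem-gated cells are given next.

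In hem-gated cells of E11.5 the ligands of gof and control were close, apart from Wnt6. Wnt8b had 236 CPM in gof and 256 CPM in control, Wnt9a 99.0 and 88.7 CPM, Wnt7b 55.7 and 57.5 CPM, Wnt3a 44.2 and 45.2 CPM and Wnt5a 21.7 and 28.7 CPM. Wnt6 had 7.35 CPM [5.69 to 9.33] in gof and 0.281 CPM [0.0765 to 0.719] in control, 67 and 4 UMIs. It was the 1 call of 6 ligands, where 7.5% of 10138 genes were called, 4.15% higher and 3.34% lower, and it was lost with a minimum of 10 CPM. Wnt3a and Wnt9a differed with the reporter inside this class. In tdTomato-positive hem-gated cells Wnt3a had 37.1 CPM [28.8 to 47.0] in gof and 64.7 CPM [57.2 to 72.9] in control, and in tdTomato-negative ones 46.0 CPM [40.5 to 52.1] in gof and 29.2 CPM [25.3 to 33.4] in control. Wnt9a likewise had 85.6 CPM in gof and 116 CPM in control with the reporter, but 101 CPM in gof and 63.8 CPM in control without it. The intervals were separate in all 4 pairs, gof lower with the reporter and higher without it; of the hem-gated cells 12.9% in gof and 22.4% in control were tdTomato-positive, and whether the classes hold like cells was not tested.

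In hem-gated cells of E14.5, 5 of 7 ligands were called, Wnt6 higher and Wnt2b, Wnt3a, Wnt5a and Wnt9a lower, where 23.6% of 11273 genes were called, 8.14% higher and 15.4% lower. Wnt6 had 128 CPM [116 to 142] in gof and 0.229 CPM in control, 387 UMIs against 1 UMI; the ratio of 561 has a counting interval of 100.2 to 22229. Wnt3a had 25.2 CPM [19.9 to 31.6] in gof and 98.6 CPM [89.5 to 108] in control, and Wnt9a 40.8 CPM [33.9 to 48.7] and 165 CPM [153 to 177]. Wnt2b had 7.30 CPM [4.58 to 11.1] in gof and 39.6 CPM [33.9 to 45.9] in control, and Wnt5a 90.3 CPM [79.9 to 102] and 208 CPM [195 to 222]. Wnt8b had 251 CPM [233 to 269] in gof and 304 CPM [288 to 321] in control, a log2 ratio of -0.28 that was not called. Wnt7b had 73.7 CPM in gof and 108 CPM in control (log2 ratio -0.55, not called), and it was called lower when Lmx1a was required for the gate (-0.63). Relative to the median gene, at -0.13, the ratios of the called ligands were 6.85 for Wnt6, -1.80 for Wnt3a, -1.85 for Wnt9a, -2.16 for Wnt2b and -1.07 for Wnt5a.

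The hem of the 2 libraries also differed in its other markers. Lmx1a, the transcription factor whose locus drives the Cre, had 154 CPM in gof and 403 CPM in control, and the 7 hem markers summed to 2187 CPM in gof and 5082 CPM in control; their part in the ligand levels was not tested. Among tdTomato-positive hem-gated cells, 156 in gof and 217 in control, Wnt3a had 22.2 CPM in gof and 125 CPM in control, Wnt9a 36.3 and 216 CPM and Wnt6 139 CPM and 0 CPM (3 UMIs in control would be 1.07 CPM). After thinning, 27.0% of hem-gated cells in gof had a Wnt6 UMI, against 0 of 341 in control (3 cells would be 0.88%; the exact upper limit is 1.08%). Wnt8b was read in 44.9% of gof and 59.2% of control cells, Wnt9a in 11.4% and 37.0%, and Wnt3a in 5.41% and 24.9%.

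**Figure D3:**
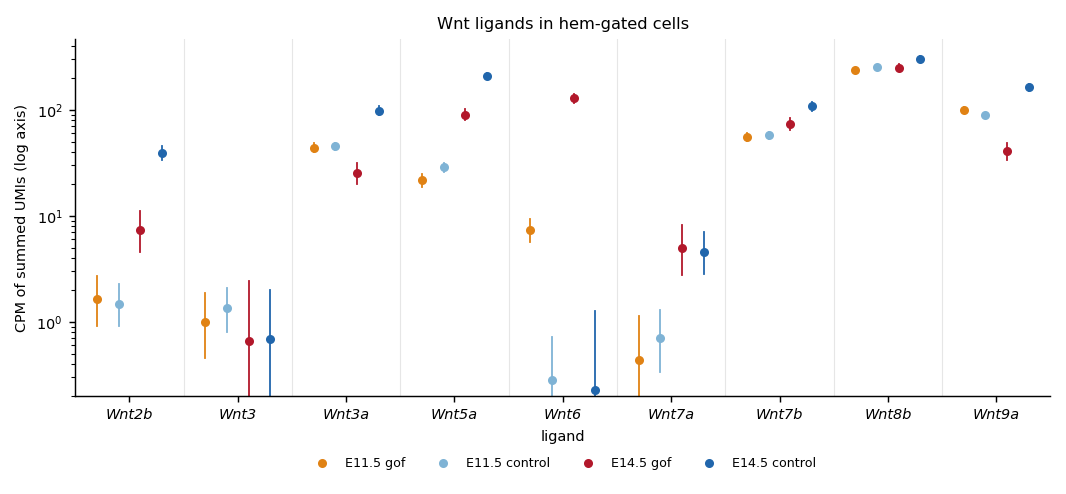
Level of each ligand (CPM of summed UMIs, log axis) in hem-gated cells of the 4 libraries, with exact 95% Poisson intervals drawn to the bottom of the axis where they reach below it. At E11.5 the gof and control points lie close together except for Wnt6; at E14.5 Wnt2b, Wnt3a, Wnt5a and Wnt9a are lower in gof and Wnt8b, with 251 CPM in gof and 304 CPM in control, lies closer.

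In the control libraries Wnt6 was highest in mesenchyme, although at E11.5 its interval there overlapped that of intermediate progenitors, at 3.13 CPM. The 678 mesenchyme-gated cells of the E11.5 control held 64.5% of its 62 Wnt6 UMIs, at 5.35 CPM, and the 53 mesenchyme-gated cells of the E14.5 control stood at 13.8 CPM, apart from Cajal-Retzius cells at 1.48 CPM. The gof mesenchyme had 6.52 CPM at E11.5, with an interval that overlaps that of control, and 53.3 CPM at E14.5. Leaving out cells of the 6 gates for non-neural cells, an alternative chosen after the data were seen, gave log2 ratios for Wnt6 over the other cells of 2.36 (E11.5) and 4.34 (E14.5), and over the other tdTomato-positive cells of 4.44 (E11.5) and 5.78 (E14.5).

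In E14.5 gof, Wnt6 was read with the reporter in many cell classes. The tdTomato-positive cells, 19.5% of the library, held 90.5% of the Wnt6 UMIs. Their level was 139 CPM in the hem, 110 CPM in pallial progenitors, 117 CPM in intermediate progenitors, 69.3 CPM in pallial neurons, 68.9 CPM in Cajal-Retzius cells and 59.3 CPM in the choroid plexus. The tdTomato-negative pallial neurons had 0.753 CPM, the tdTomato-negative pallial progenitors 0.976 CPM and the tdTomato-negative intermediate progenitors 0.544 CPM. Mesenchyme was the exception, with 36.5 CPM in tdTomato-positive and 61.8 CPM in tdTomato-negative cells. The highest level, 286 CPM, was in tdTomato-positive cells that met no gate; the ungated cells of that library were shallow, with a median of 2578.5 UMIs. In E11.5 gof the tdTomato-positive cells, 4.19% of the library, held 30.9% of the Wnt6 UMIs and the tdTomato-negative cells 47.9%. The tdTomato-positive hem-gated cells there had 22.4 CPM and the tdTomato-negative ones 1.82 CPM.

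Wnt6 also differed with the amount of reporter RNA. In E14.5 gof it had 2.50 CPM in cells with 0 tdTomato UMIs, 6.37 CPM with 1, 47.1 CPM with 2 to 3, 128 CPM with 4 to 7 and 120 CPM with 8 or more. In the E14.5 control no bin exceeded 1.05 CPM. In E11.5 gof it had 3.44, 11.7, 27.3 and 22.1 CPM over the first 4 bins and 1 UMI in the 4 cells of the last. At E14.5 Wnt3a rose with the reporter in both genotypes. Over the same bins it had 0.544, 1.16, 2.34, 7.08 and 9.49 CPM in gof. In control it had 0.999, 4.96, 25.2, 43.7 and 63.3 CPM. Wnt8b, with 133 CPM in gof and 217 CPM in control in the highest bin, and Wnt9a, at 18.6 and 104 CPM there, had the same order of bins. Wnt7b differed at E14.5. It ran at 34.0, 34.5, 34.2, 25.4 and 25.7 CPM over the bins of gof. Over those of control it ran at 28.6, 34.6, 57.9, 85.7 and 70.5 CPM. In E11.5 gof Wnt7b had 26.4, 33.5, 42.2 and 35.1 CPM over the first 4 bins. Cells with more tdTomato UMIs are also deeper cells, and CPM is a share of each bin's own UMIs.

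**Figure D4:**
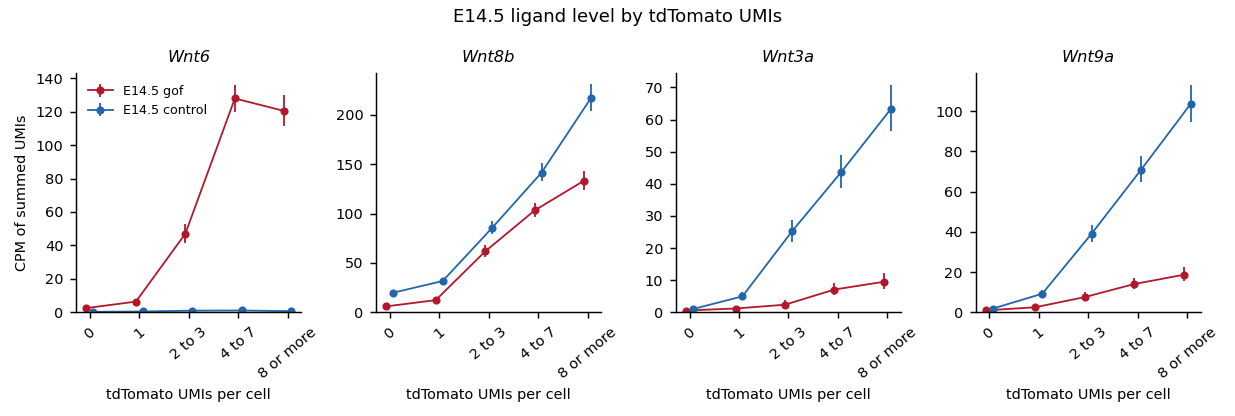
Level of Wnt6, Wnt8b, Wnt3a and Wnt9a (CPM of summed UMIs, linear axes of different range) at E14.5 by the number of tdTomato UMIs per cell, gof in red and control in blue, with exact 95% Poisson intervals. Wnt6 is near 0 in every control bin and reaches 128 CPM in gof cells with 4 to 7 tdTomato UMIs, whereas Wnt3a and Wnt9a climb in control to 63.3 and 104 CPM.

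Within the tdTomato-positive cells of E14.5 gof, all thinned to 3000 UMIs, 233 cells had a Wnt6 UMI and 787 had none. Both sets pool all cell classes and reporter amounts, and the Wnt6 level differed with both. It was 47.1 CPM in cells with 2 to 3 tdTomato UMIs and 128 CPM with 4 to 7. Whether the differences in targets hold within a class or at like reporter amounts was not tested. For the ligands, hem-gated cells alone are given further below. Cells with Wnt6 more often had a UMI of each of the 5 targets: Nkd1, an inhibitor induced by canonical signalling, in 93.6% against 49.7%, Lef1, the β-catenin partner, in 85.8% against 54.3%, and Sp5, a target repressor, in 78.1% against 41.2%. Axin2, the negative-feedback scaffold, was in 67.4% against 40.03%, and Notum, an enzyme that strips the lipid from Wnt ligands, in 50.6% against 23.9%, all 5 with separate intervals. The other ligands split. Wnt7b was in 0.429% of cells with Wnt6 and 8.51% of cells without, and Wnt9a in 0.429% and 3.94%, both with separate intervals. Wnt8b, in 19.3% and 19.8%, and Wnt5a, in 18.9% and 13.1%, had overlapping intervals, as did Wnt3a at 0.429% and 1.78%. Lmx1a was in 18.5% of cells with Wnt6 and 16.5% of cells without. At E11.5 gof, with 23 cells against 251, Nkd1 was the 1 target with separate intervals, at 73.9% and 32.3%.

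**Figure D5:**
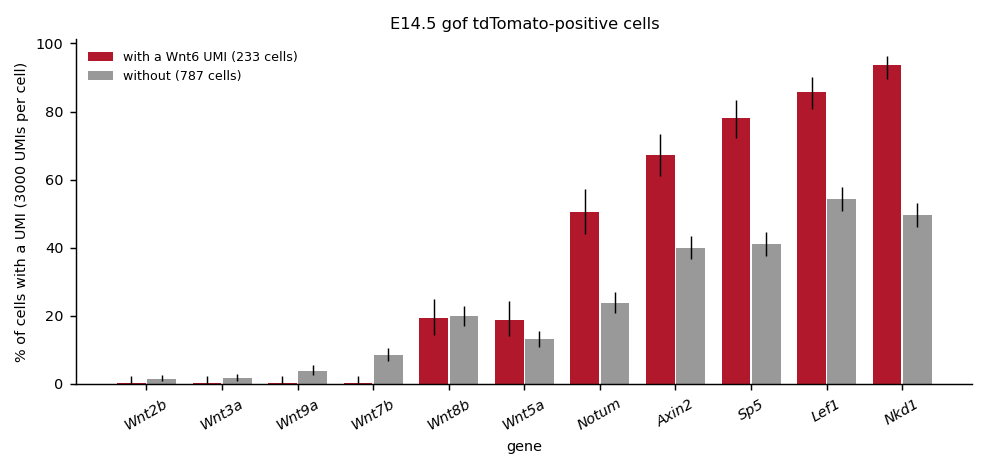
Share of tdTomato-positive E14.5 gof cells with a UMI of each gene, for the 233 cells with a Wnt6 UMI (red) and the 787 without (grey), each cell thinned to 3000 UMIs; error bars are exact 95% Clopper-Pearson intervals. The 5 targets on the right are read more often beside Wnt6, at 93.6% against 49.7% for Nkd1, and Wnt7b and Wnt9a less often, at 0.429% against 8.51% and 3.94%.

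Co-detection in hem-gated cells was described after thinning, so that deep cells do not make pairs by depth alone. None of the 9 ligands was read in 29.6% of E11.5 gof, 29.4% of E11.5 control, 22.7% of E14.5 gof and 15.5% of E14.5 control cells, and 3 or more in 5.49%, 7.84%, 11.9% and 37.5%. At E14.5 cells with 3 or more ligands were thus rarer in gof, and before thinning, at median depths of 14824.5 UMIs in gof and 10517 in control, they were 57.9% and 72.3%. In the E14.5 control, 3 of 22 pairs that could be compared had separate intervals. Wnt5a was in 63.0% of cells with Wnt2b and 38.0% of those without, Wnt8b in 69.9% of cells with Wnt5a and 51.5% of those without, and Wnt9a in 44.1% of cells with Wnt8b and 26.6% of those without. In the E11.5 control, 3 of 14 pairs were separate: Wnt8b was in 61.7% of cells with Wnt3a against 49.5%, Wnt9a in 34.3% of cells with Wnt5a against 21.4%, and Wnt9a in 26.5% of cells with Wnt8b against 18.0%. In E11.5 gof 2 of 18 were separate, with Wnt8b in 61.7% against 46.7% and Wnt9a in 39.8% against 18.5% of cells with and without Wnt3a. In each of these pairs the second ligand was read more often in cells that had the first.

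The hem-gated cells of E14.5 gof had pairs in the other direction, both with Wnt6. Wnt7b was in 0 of 50 cells with Wnt6 (3 cells would be 6.0%) and 17.8% of 135 cells without, and Wnt9a in 0 of 50 and 15.6%. These 2 of 18 pairs were separate and lower, and 1 was higher: Wnt9a was in 33.3% of cells with Wnt7b and 8.07% of those without. Wnt8b was in 38.0% of cells with Wnt6 and 47.4% of those without, and Wnt5a in 15 of 50 and 31 of 135, with overlapping intervals. Without thinning, Wnt6 was in 0 of 39 cells with Wnt3a and in 55.0% of cells without it, in 10.0% of cells with Wnt2b and 47.6% of those without, while Wnt7b was in 84.6% of cells with Wnt3a and 22.5% of those without. At this depth Wnt6 was thus not read in the gof hem cells that had Wnt3a, nor Wnt7b or Wnt9a in those that had Wnt6 after thinning. Cells of 1 library are not replicates, and no p-value is given.

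Of 10 other Wnt ligands, 6 (Wnt1, Wnt2, Wnt8a, Wnt9b, Wnt10b and Wnt11) lay under 5 CPM in whole libraries, tdTomato-positive cells and hem-gated cells. In tdTomato-positive cells of E14.5 3 of the 4 that passed were called higher in gof and 0 lower, where 7.41% of all genes were called higher and 17.7% lower: Wnt4, known from kidney and gonad, had 10.2 CPM in gof and 3.85 CPM in control, Wnt10a, the neighbour of Wnt6, 24.2 and 10.5 CPM, and Wnt16, known from bone, 12.0 and 0.152 CPM. The same 3 of 4 were called higher in the hem-gated cells, where 8.14% of genes were called higher and 15.4% lower, Wnt10a for instance with 15.6 CPM in gof and 0.687 CPM in control. At E11.5, in tdTomato-positive cells, Wnt10a was called higher (6.16 and 2.16 CPM) and Wnt5b, a relative of Wnt5a, lower (24.1 and 40.4 CPM), of 3 tested, where 5.15% of genes were called higher and 5.03% lower. Over all kept cells 0 of 2 were called at E11.5 (9.23% of genes called) and 1 of 3, Wnt4, was called higher at E14.5 (3.89% of genes higher), and 0 of 2 were called in the hem at E11.5 (7.5% of genes called).

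Of 10 genes for the making, release and trimming of Wnt ligands, 3 were called higher and 2 lower in tdTomato-positive cells of E14.5 gof, where 7.41% of genes were called higher and 17.7% lower. Notum, which is also among the 5 targets, had 194 CPM in gof and 0.608 CPM in control. Trabd2b, a protease that trims Wnt ligands, had 22.5 CPM in gof and 12.3 CPM in control, and Gpc4, a glypican that binds them at the cell surface, 142 and 70.3 CPM. Wls, the carrier that takes Wnt ligands to the surface, had 212 CPM in gof and 363 CPM in control, and Gpc3, another glypican, 51.0 and 83.3 CPM. In hem-gated cells of E14.5, 3 were called higher (Notum, Trabd2b and Gpc3; 8.14% of genes were) and Wls lower (15.4% of genes were), with 383 CPM in gof and 640 CPM in control. Gpc3 thus had opposite calls in the 2 sets, with 51.5 CPM in gof and 27.2 CPM in control in the hem. At E11.5 Notum (72.5 CPM in gof and 0.971 CPM in control) and Porcn, the enzyme that adds the lipid (8.95 and 4.42 CPM), were called higher in tdTomato-positive cells, 2 of 10, and Notum alone, 1 of 10, in the hem (31.9 and 0.632 CPM), beside 5.15% and 4.15% of all genes. In whole libraries 1 of 9 was called higher and 2 lower at E11.5 (5.48% of genes higher and 3.74% lower), and 2 of 10 higher and 1 lower at E14.5 (3.89% and 8.91%).

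The genes most like each ligand were ranked by Pearson's r of log2(CPM + 1) over 41 sums of a class in a library, among 12864 genes; the sums share libraries and depth, and r is a description. Wnt6 was most like Notum (0.92), Cryba2 (0.87), Dkk1 (0.86), a secreted inhibitor of Wnt receptors, Egfl6 (0.86) and 5530401A14Rik (0.85). Wnt9a was most like Sulf2 (0.85) and Sulf1 (0.84), the enzymes that trim sulphate from heparan chains, Wls (0.80), Gm17455 (0.80) and Fam163a (0.78), and Wnt8b shared Gm17455 (0.80), Sulf1 (0.80) and Sulf2 (0.78) with it. Wnt3a stood nearest to Gm17455 (0.78) and Ccna1 (0.73), and Wnt2b to Lrat (0.84), which stores retinol as esters. Wnt3 was most like the transcription factor genes Helt (0.88), Irx2 (0.86) and Foxb1 (0.85). Wnt5a was most like Dipk2a (0.89) and Adgrl3 (0.86), Wnt7a like B3gat2 (0.87) and Lancl3 (0.87), and Wnt7b like Hopx (0.79) and Cacng4 (0.77). Among the ligands themselves r was 0.86 for Wnt3a with Wnt9a, 0.80 for Wnt8b with Wnt9a, 0.77 for Wnt2b with Wnt5a and 0.71 for Wnt3a with Wnt8b, and it was lowest, at -0.45, for Wnt7a with Wnt9a.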

How the data were processed

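Per the labels' protocols, cells of the dissected midline were captured with 10x Chromium 3′ chemistry, aiming at 9000 cells per library from about 14400 loaded. For each library the authors deposited raw UMI counts by gene and barcode, without normalization. The submitters' processing notes name Cell Ranger 7.1.0 and mm10; which annotation was used is not given in the sources used. Ages are E11.5 and E14.5 after the text of the series, while the titles drop the 0.5 day.

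Barcodes needed 1000 genes or more and no more than 10% mitochondrial UMIs, and those with the highest Scrublet scores, 0.8% per 1000 barcodes, were removed as likely doublets (602 in E11.5 gof, 459 in E11.5 control, 314 in E14.5 gof and 492 in E14.5 control; in the same order Scrublet's own threshold marked 2, 2, 348 and 309). Gates were applied in a fixed order, a cell taking the first it met. Shares of cells were compared after thinning each cell to 3000 UMIs, which left out 649 cells of E11.5 gof, 102 of E11.5 control, 262 of E14.5 gof and 280 of E14.5 control. The limit of 1.5-fold, the minimum of 5 CPM and the interval rule were applied to all genes, which gives the percentage of genes called. The 9 genes, the gates and the gene lists were chosen with earlier results of these data known. The genes named beside them are the listed pathway genes, gate markers and the 5 most similar genes per ligand (of at least 10 CPM in a sum), of which some are named. Python 3.11.15, numpy 2.4.6, scipy 1.17.1, scanpy 1.11.5 and matplotlib 3.10.9 were used.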

Additional observations from a re-analysis of the deposited data

Results flagged for a closer look

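The Wnt2b ratio over whole libraries differed between the ages. Its log2 ratio of gof to control was -0.93 at E14.5 and 0.30 at E11.5, a difference of -1.23, but the gene stayed under 5 CPM in all 4 libraries.

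In hem-gated cells the log2 ratio of gof to control for Wnt9a was -1.98 at E14.5 and 0.16 at E11.5, a difference of -2.14. At E11.5 Wnt9a had 85.6 CPM in gof and 116 CPM in control in the tdTomato-positive hem-gated cells, under the 1.5-fold limit, and 101 CPM in gof and 63.8 CPM in control in the tdTomato-negative ones.

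Wnt6 differed in its course with age. Its log2 ratio of E14.5 to E11.5 was 1.99 in gof and -0.42 in control, a difference of 2.41. The control ratio rests on 62 UMIs at E11.5 and 42 UMIs at E14.5, with both levels under the 5 CPM minimum. Mesenchyme held 64.5% of the E11.5 control UMIs. Its own level in control was 5.35 CPM in 678 cells at E11.5 and 13.8 CPM in 53 cells at E14.5. The part of cell numbers in the control ratio was not tested.

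Wnt7b differed in its relation to the reporter at E14.5. Its log2 ratio of tdTomato-positive to tdTomato-negative cells was -0.26 in gof and 1.27 in control, a difference of -1.53.

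With 1 library per group none of these 4 differences was tested. Each was listed because the 2 ratios had opposite signs with counting intervals that excluded equality on either side.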

How the results depend on the processing

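The calls were recomputed under 17 alternatives, 1 of them, the removal of non-neural cells, chosen after the data were seen. Of 130 counts of called ligands, 125 stayed within 1.5 times. Over all kept cells at E11.5, 0 ligands in place of 1 were called with a minimum of 10 CPM and with a filter of 2000 genes or more and no more than 5% mitochondrial UMIs per barcode. In tdTomato-positive cells of E11.5, 1 in place of 2 was called with that stricter filter and with positive cells taken from 1 UMI, and in hem-gated cells of E11.5, 0 in place of 1 with a minimum of 10 CPM; a higher minimum tests fewer genes and a stricter filter keeps fewer cells, whereas the cause with positive cells from 1 UMI was not tested. Of 547 recomputed log2 ratios of called ligands, 0 changed sign, 530 were still called and 17 lost the call, and 30 ratios that were not called became so. With no minimum, Wnt2b over the E14.5 libraries (log2 ratio -0.93) and Wnt3 between the ages (-1.78 in control and -1.64 in gof) were called. No paired analysis was possible because each group is 1 library and the labels give no replicate numbers. Counting error is widest for Wnt2b and Wnt7a at E11.5, Wnt3 at E14.5 and Wnt6 in control, where few UMIs were counted. Without replicate libraries, no difference can be set against the spread between litters.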
